A study of Mus musculus with 6 samples.

Results

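The Cbl ubiquitin ligase family was followed across mouse embryonic stem cell clones that carry an inducible human GTF2I gene. The family was taken as the probe sets whose single gene symbol was Cbl, Cblb, Cblc or Cbll1. These are 4 of 18193 named genes and 10 of the 45037 probe sets tested: 3 for Cbl, 3 for Cblb, 2 for Cblc and 2 for Cbll1, and none was dropped by a filter. The family was chosen by a measured value: a Cbl probe set had the largest opposite movement between clones. The movement of each clone is therefore given as a description, without a test.

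Cbl proteins are RING-type ubiquitin ligases. Their tyrosine kinase binding domain docks on phosphorylated receptors and kinases, and their RING finger brings in a ubiquitin-conjugating enzyme, so that an activated receptor is tagged, taken into the cell and sorted to the lysosome. Cbl and Cblb are broadly expressed and best known as brakes on receptor and antigen signalling, and Cblc is a shorter relative found mainly in epithelia. Cbll1, also named Hakai, is a Cbl-like RING ligase that acts on phosphorylated E-cadherin and is also a component of the complex that writes N6-methyladenosine on RNA. Embryonic stem cells grow as E-cadherin-bound colonies and use receptor tyrosine kinases such as the FGF receptors.

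The induced group was 3 arrays of total RNA, from clones A1, B3 and C6 after 24 h without tetracycline, and the uninduced group was 3 arrays of the same clones kept in tetracycline (0 h without it). All 6 arrays came from the EB3 line with LIF in the medium. All carried the human GTF2I coding sequence with a FLAG epitope at Rosa26, behind a promoter that tetracycline represses, and each line was a single clone. GTF2I encodes the transcription factor TFII-I. The titles name GTF2I, while a characteristics field names GTF2IRD2, and the titles were followed. No array of cells without the transgene was analysed here, so the transgene and the removal of tetracycline cannot be told apart. Levels are RMA values, the log2 summary that the authors made for each probe set, and a difference of 1 is a doubling. In bulk RNA, fewer expressing cells and less RNA per cell cannot be told apart.

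The array medians lay between 5.06 and 5.11 and the lower quartiles between 3.66 and 3.73. All 10 embryonic stem cell markers were measured, and the mean of the list lay between 11.97 and 12.23 on the induced arrays and between 12.11 and 12.12 on the uninduced arrays. The mean of 8 fibroblast markers stayed between 4.41 and 4.52 over the 6 arrays, and that of 9 markers of differentiated lineages between 5.45 and 5.62. Single markers, picked after their values were seen, differed more by clone. The keratin Krt18 averaged 7.29 in A1, against 6.49 in B3 and 6.48 in C6 (limma F test among clones, adjusted p = 0.0445). Over all probe sets the 509 calls of this test became 11 to 117 when an array of B3 or C6 was left out. Krt18 was not followed in those fits. Thy1 stood at 7.25 (A1), 6.34 (B3) and 6.49 (C6) and Neurod1 at 7.49, 7.32 and 8.49 without passing (same test, adjusted p = 0.115 and 0.0666). Others were lowest in A1 without passing, such as Dcn at 4.48, 5.03 and 4.63 and Pax6 at 5.65, 6.12 and 6.38. Of the 10 stem cell markers, 4 were higher in induced A1 and lower in induced B3 and C6, and 2 were the reverse. Esrrb differed by 0.51 (A1), -0.36 (B3) and -0.65 (C6), and Dppa5a by -0.08, 0.10 and 0.12. The part of these marker levels in the results was not tested. Clone A1 stood apart: across all probe sets the differences between its states had an r of -0.39 against B3 and -0.48 against C6, whereas B3 against C6 gave 0.46 (across probe sets, which are not replicates). The states of the arrays follow the labels, and the array values alone do not settle whether the labels of the A1 pair are in the right order: with the pair exchanged, every A1 difference below would have the opposite sign. The study's methods describe an RT-PCR check of transgene induction in the clones, which is separate from the array values and was not analysed here. Values are therefore given with A1 and without it.

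Cbl showed the widest movement of the family, most of it in 1 of its probe sets. Probe set 1455886_at stood at 6.09 (A1), 8.66 (B3) and 8.58 (C6) on the induced arrays, against 8.35 (A1), 6.25 (B3) and 6.01 (C6) on the uninduced arrays. The groups overlapped, as uninduced A1 lay beside induced B3 and C6, while induced A1 lay beside uninduced B3 and C6. On the induced array Cbl was 4.77-fold lower in A1, 5.30-fold higher in B3 and 5.94-fold higher in C6, which are differences of -2.25, 2.41 and 2.57. The order of levels ran from uninduced C6, induced A1 and uninduced B3, within 0.25 of each other, to uninduced A1, induced C6 and induced B3, within 0.31 of each other, with a gap of 2.09 between the trios. Each level is 1 array with no error of its own, so the order within a trio was not tested. The lower trio, at 6.01 to 6.25, was still above the median of every array.

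**Figure D1:**
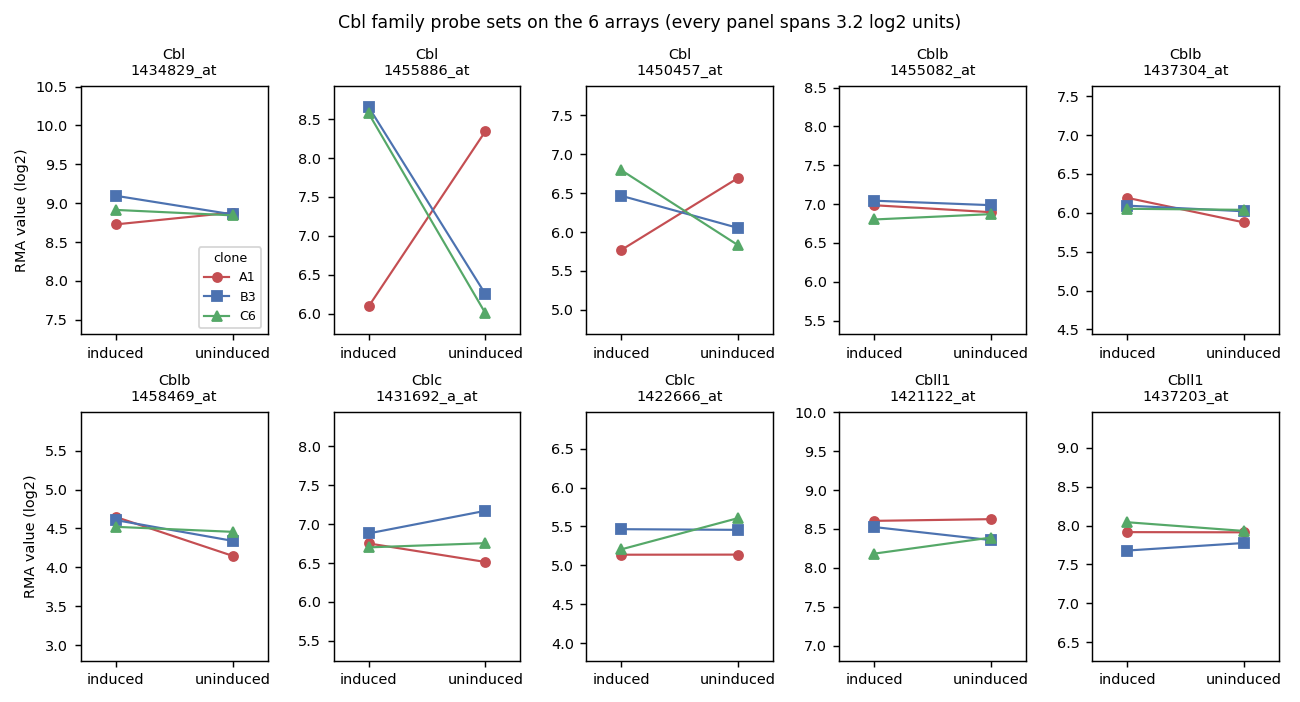
RMA values (log2) of the 10 Cbl family probe sets, with induced arrays on the left and uninduced arrays on the right of each panel with a line for each clone; every panel spans the same height. In Cbl 1455886_at the line of A1 crosses those of B3 and C6, with levels from 6.01 to 8.66, while no Cblb, Cblc or Cbll1 probe set spans more than 0.66.

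The other Cbl probe sets went the same way by clone and by much less. Probe set 1450457_at stood at 5.77 (A1), 6.47 (B3) and 6.79 (C6) on the induced arrays, against 6.70 (A1), 6.05 (B3) and 5.83 (C6) on the uninduced arrays. Its differences were -0.93, 0.41 and 0.97, with the same trios of arrays high and low and a gap of 0.41 between them. The brightest Cbl probe set, 1434829_at, stood at 8.73 (A1), 9.10 (B3) and 8.91 (C6) when induced, against 8.88 (A1), 8.86 (B3) and 8.84 (C6) when uninduced. Its differences were -0.15, 0.24 and 0.07, its trios were 0.02 apart, and its range over the 6 arrays was 0.37, below the median range of all probe sets, 0.39.

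The disagreement between the Cbl probe sets was measured as the spread of 1 quantity, the difference in A1 minus the mean difference of B3 and C6. That quantity was -4.74 for 1455886_at, -1.61 for 1450457_at and -0.31 for 1434829_at, a spread of 4.43. Among the 9010 genes with several probe sets, Cbl had the widest such spread, and the median gene had 0.40; this rank largely restates the choice of Cbl, since 1455886_at was the extreme of the same quantity. The spread was 0.24 for Cblb, 0.22 for Cblc and 0.003 for Cbll1. The positions of the 3 Cbl probe sets on the transcript were not analysed here.

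Over the whole table, 1455886_at ranked first of 45037 by the size of this quantity. The next were Zfp57, a zinc finger gene that protects imprints, at 3.89, Acer2, a ceramidase, at 3.49, Akap9, a centrosomal and Golgi scaffold, at -3.48, and the noncoding RNA Malat1 at -3.45. Probe set 1450457_at ranked at 168 and 1434829_at at 13667. By the smallest of its 3 clone differences, 2.25, the leading Cbl probe set was again first among the 18644 probe sets in which A1 opposed both other clones, and Akap9 followed at 1.70. By plain range over the 6 arrays, 2.65, it ranked only at 29.

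**Figure D2:**
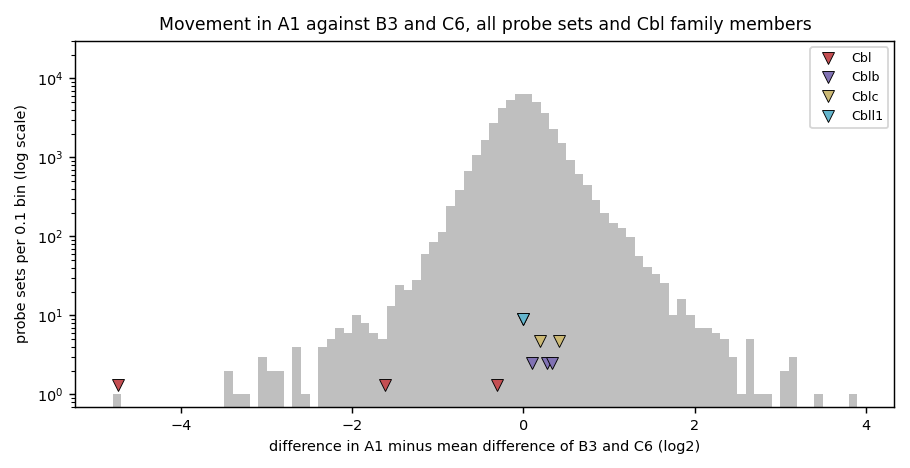
Histogram of the induced minus uninduced difference in A1 minus the mean difference of B3 and C6 (log2, bins of 0.1) for all 45037 probe sets, on a log count axis, with triangles at the 10 family members; the height of a triangle only separates the genes. Cbl 1455886_at lies alone at -4.74 and Cbl 1450457_at at -1.61, whereas the Cblb, Cblc and Cbll1 probe sets lie between -0.005 and 0.41.

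Of the 10 members, 4 ran in A1 against B3 and C6 alike, beside 41.4% of all probe sets. The latter share was 60.3% once probe sets averaging below 6 were removed. All 3 Cbl probe sets were lower in induced A1 and higher in induced B3 and C6, a pattern held by 21.5% of all probe sets, and Cblc 1431692_a_at had the reverse. Only Cbl 1455886_at moved in this way by at least 0.5 in every clone, which 0.755% of all probe sets did. Since the family was chosen on this contrast, nothing is read from these counts. The 3' and 5' probe sets of 4 control transcripts, a measure of RNA integrity, were set beside them. The 3' minus 5' value of the Actb control was 0.40 (A1), 0.58 (B3) and 0.47 (C6) when induced, against 0.38, 0.35 and 0.43 in the same clones when uninduced. For the Gapdh control it was 0.14, 0.14 and 0.06 when induced, against 0.07, 0.12 and 0.15 when uninduced. For the transferrin receptor control it was 1.75, 2.11 and 1.74 when induced, against 1.32, 1.68 and 1.85 when uninduced. For the pyruvate carboxylase control it was 1.02, 1.37 and 1.31 when induced, against 1.14, 1.23 and 1.61 when uninduced. In all 4 controls the arrays with high Cbl overlapped those with low Cbl, and their part in the result was not tested.

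The comparison of induced with uninduced arrays asks which genes differ between cells 24 h without tetracycline and cells kept in it. No member passed it. Of the 10 members 0 were called, beside 0% of all probe sets (limma, smallest adjusted p = 1.00; 436 of all probe sets and 1 member had an unadjusted p under 0.05, and the methods' t-test also called 0 after adjustment). Cbl 1455886_at averaged 7.77 ± 1.46 on induced arrays and 6.87 ± 1.29 on uninduced arrays (SD, n = 3 each). The mean difference was 0.91, with a 95% interval of -0.97 to 2.78 over clones of opposite sign. The error of this comparison also holds the opposite movement on which Cbl was chosen, so nothing is read from the absence of a call for Cbl. Cbl 1450457_at differed by 0.15 (-0.54 to 0.84) and Cbl 1434829_at by 0.05 (-0.21 to 0.32). Without A1 the means of B3 and C6 were 2.49, 0.69 and 0.15 for 1455886_at, 1450457_at and 1434829_at. A limma fit of those 2 clones with the clone as a block, a setting added after the data were seen, called 2 of the 10 members, both of Cbl, beside 2.18% of all probe sets, and it uses the contrast on which Cbl was chosen.

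**Figure D3:**
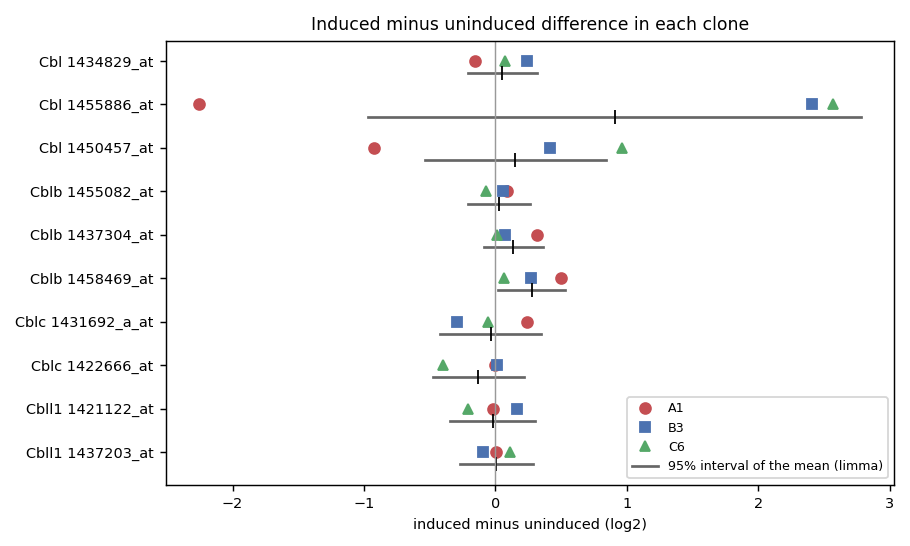
Induced minus uninduced difference (log2) of the 10 family probe sets, with 1 symbol per clone and, under them, the mean of the 3 clones (tick) with its 95% interval from limma (bar). Only Cbl 1455886_at and Cbl 1450457_at have clones far from 0 on both sides; the interval of Cblb 1458469_at, 0.02 to 0.53, lies above 0 before adjustment.

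Cblb, which restrains T cell activation, differed little, and its dimmest probe set had the smallest unadjusted p of the family. Probe set 1458469_at stood at 4.65 (A1), 4.61 (B3) and 4.52 (C6) on the induced arrays, against 4.15, 4.34 and 4.46 in the same clones on the uninduced arrays. The groups did not overlap, and the difference was 0.28 ± 0.11 (SE, n = 3 per group; limma, unadjusted p = 0.037, adjusted p = 1.00), made up of 0.50 (A1), 0.27 (B3) and 0.06 (C6). Its mean of 4.45 lay below the median of every array.

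The other Cblb probe sets were brighter and moved less. For 1437304_at the levels were 6.19, 6.09 and 6.05 in induced A1, B3 and C6, against 5.88, 6.02 and 6.04 when uninduced. These groups also did not overlap, by a margin under the spread within either group, and the difference was 0.13 (95% interval -0.09 to 0.36). The brightest, 1455082_at, stood at 6.99, 7.04 and 6.80 when induced, against 6.90, 6.99 and 6.87 when uninduced, with overlapping groups and a difference of 0.03 (-0.21 to 0.26). In all, 2 of the 10 members had groups that did not overlap, beside 4.55% of all probe sets. Without A1 the 3 Cblb differences were 0.17, 0.04 and -0.006 in the same order.

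Cblc, the epithelial member, was measured by a probe set that covers alternative transcripts and by another. Probe set 1431692_a_at stood at 6.75 (A1), 6.88 (B3) and 6.70 (C6) on the induced arrays, against 6.51, 7.17 and 6.76 on the uninduced arrays. Both arrays of B3 were the highest, the groups overlapped, and the difference was -0.04 (95% interval -0.42 to 0.35). Probe set 1422666_at stood at 5.14, 5.47 and 5.21 when induced, against 5.14, 5.46 and 5.61 when uninduced. Nearly all of its difference of -0.13 (-0.48 to 0.21) came from C6, at -0.40, while A1 and B3 differed by -0.001 and 0.008. Without A1 the Cblc differences were -0.17 and -0.20.

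Cbll1 had the smallest mean differences of the family between the states, from clones that moved in opposite directions. Probe set 1421122_at stood at 8.60 (A1), 8.52 (B3) and 8.18 (C6) on the induced arrays, against 8.63, 8.36 and 8.39 on the uninduced arrays, and 1437203_at at 7.92, 7.68 and 8.04, against 7.91, 7.78 and 7.93. The groups overlapped in both, and the mean differences were -0.02 (95% interval -0.34 to 0.30) and 0.006 (-0.27 to 0.28). The clones did not share a sign in either probe set. Their differences were -0.02 (A1), 0.17 (B3) and -0.21 (C6) for 1421122_at, and 0.002, -0.10 and 0.11 for 1437203_at. The probe sets disagreed in sign in all 3 clones. Without A1 the differences were -0.02 and 0.008.

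Levels were next compared among the clones with the induction state as a term. The error term of this fit holds the opposite movement on which Cbl was chosen, so the Cbl levels are given without a test. The mean of both states of Cbl 1455886_at was 7.22 (A1), 7.45 (B3) and 7.29 (C6), that of 1450457_at was 6.23, 6.26 and 6.31, and that of 1434829_at was 8.80, 8.98 and 8.88. Of the 7 probe sets of Cblb, Cblc and Cbll1, 0 passed (limma moderated F test, adjusted p from 0.433 to 0.995), beside 1.13% of all probe sets, and 0 had an unadjusted p under 0.05, beside 6192 of all 45037. The smallest adjusted p belonged to Cblc 1431692_a_at, at 6.63 (A1), 7.03 (B3) and 6.73 (C6). For Cbll1 1421122_at the means were 8.61, 8.44 and 8.29.

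Genes whose pattern was most like Cbl 1455886_at were ranked by Pearson r over the 6 arrays, among 9557 other genes with a mean of at least 6. These values describe 6 arrays that share 3 clones and fall into a high and a low trio. The highest were Mex3c, an RNA-binding protein with a RING finger (r = 0.996), Evi5, a regulator of Rab GTPases (0.996), Pigo, of glycolipid anchor synthesis (0.992), Zfp622 (0.992), and Kif5b, a kinesin motor (0.991). Their movements were smaller than that of Cbl. Evi5 differed by -1.51 (A1), 1.41 (B3) and 1.45 (C6), Kif5b by -0.75, 0.62 and 0.65, and Mex3c by -0.22, 0.27 and 0.25.

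The most opposite genes were Khdrbs3, an RNA-binding splicing regulator (r = -0.997), Eprs, a tRNA synthetase (-0.997), Slc7a6os (-0.995), Ifrd2 (-0.992) and Irf2bp2, a transcriptional corepressor (-0.989). Slc7a6os differed by 0.71 (A1), -0.77 (B3) and -0.71 (C6). An r of at least 0.9 was shared by 245 of the 9557 genes (2.56%) and one of at most -0.9 by 393 (4.11%). Cbl 1450457_at had an r of 0.945 with the leading probe set and Cbl 1434829_at one of 0.74, while the Cblb, Cblc and Cbll1 probe sets lay between -0.405 and -0.034.

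**Figure D4:**
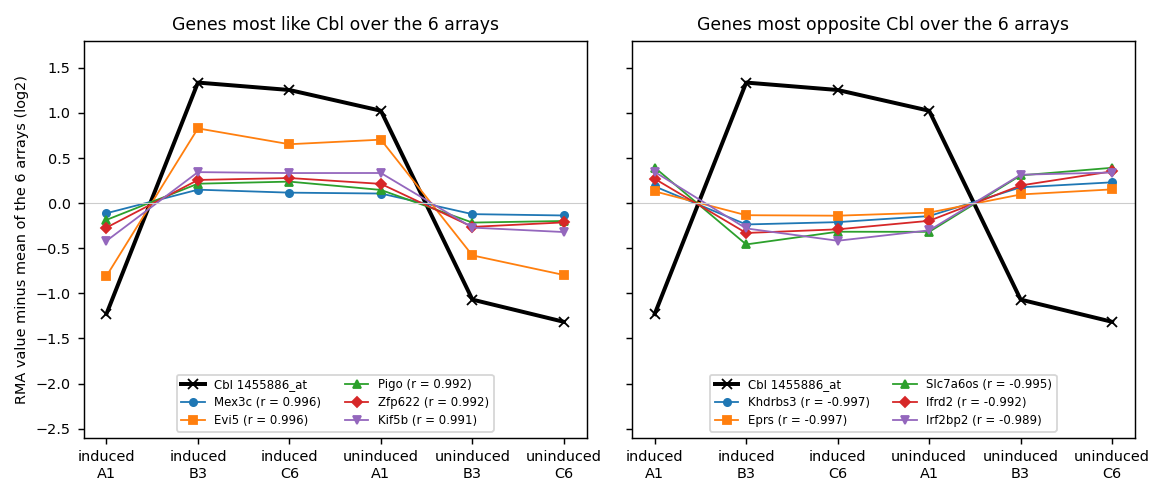
RMA values minus the mean of the 6 arrays (log2) for Cbl 1455886_at (thick line) and the 5 genes most like it (left) and most opposite to it (right), with induced arrays before uninduced arrays; r is Pearson's over the 6 arrays. The genes on the left share the high levels of induced B3, induced C6 and uninduced A1, and the genes on the right are low there; Evi5 comes closest to Cbl in size.

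The genes that work with Cbl proteins were examined in 6 lists, with 1 probe set per gene. None of their genes was called in the comparison of the states (limma), and none had an unadjusted p under 0.05. Over all 18193 genes the median difference was -0.002, 49.2% were higher in the induced mean, and 45.5% ran in A1 against B3 and C6 alike. That last share depends on level. It was 41.4% of all probe sets, but 60.3% once those averaging below 6 were removed. Every partner list averaged above 6 on each array, so nothing is read from how many of its genes ran in A1 against the others. The receptors and kinases that Cbl proteins act on had 6 of 18 measured genes higher and 12 lower in the induced mean (median -0.05). Of these 18 genes, 9 ran in A1 against the other clones. Those with the smallest p were the receptor Erbb2 (-0.20 ± 0.13, SE, n = 3 per group) and the cytoplasmic kinases Zap70 (-0.18 ± 0.14) and Syk (-0.16 ± 0.13), with Erbb2 and Zap70 lower in all 3 clones. Fgfr1, the main FGF receptor of these cells and picked after its values were seen, differed by 0.50 (A1), -0.29 (B3) and -0.95 (C6). Yes1, a Src family kinase, was the only one of the listed partners whose level passed among the clones, at 8.80 (A1), 9.59 (B3) and 9.76 (C6) (limma F test, adjusted p = 0.0376). The call was lost when any array of B3 or C6 was left out (adjusted p from 0.121 to 0.270).

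Adaptors and SH3 partners had 11 of 20 genes higher and 9 lower (median 0.03), and 10 ran in A1 against the other clones. Shc1, an adaptor of activated receptors, differed by 0.40 (A1), -0.52 (B3) and -0.89 (C6), and Grb2, which carries Cbl to receptors, by 0.08, -0.34 and -0.24. Sorbs2 was lower in all 3 clones, by -0.09, -0.11 and -0.16. Inhibitors and sequestering proteins had 2 of 8 higher and 6 lower (median -0.06), and 6 ran in A1 against the other clones. Of these Spry4, a Sprouty inhibitor of receptor signalling, differed by 0.33, -0.36 and -0.61 in A1, B3 and C6, its relative Spry2 by -0.16, 0.12 and 0.35, and the phosphatase Ptpn22 by -0.57, -0.18 and 0.27, at a mean of 3.35 below the lower quartile of every array.

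Ubiquitin enzymes that work with or on Cbl proteins had 2 of 8 genes higher and 6 lower (median -0.06), and 6 ran in A1 against the other clones. The ligase Wwp1 differed by -0.20, -0.10 and -0.05 in A1, B3 and C6, and the deubiquitinase Usp8 by 0.008, -0.23 and -0.13. Ube2d3, a conjugating enzyme of the family that RING ligases use, differed by 0.04, -0.14 and -0.10. Sorting proteins of ubiquitinated receptors had 3 of 11 higher and 8 lower (median -0.02), and 8 ran in A1 against the other clones. Epn1, an endocytic adaptor that binds ubiquitin, had the largest opposite movement among the genes named from the lists, at 0.86 (A1), -0.73 (B3) and -1.20 (C6). Hgs, the sorting subunit on endosomes, differed by 0.49, -0.42 and -0.66, and Rab5a by -0.01, 0.07 and 0.12.

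Among 11 partners of Cbll1, 6 were higher and 5 lower (median 0.02), and 6 ran in A1 against the other clones. Cdh1, the E-cadherin gene, is named here because Cbll1 acts on its product, and it differed by -0.05 (A1), 0.08 (B3) and 0.08 (C6). Mettl14, a subunit of the N6-methyladenosine writer, differed by -0.21, 0.39 and 0.28, its partner Mettl3 by 0.01, 0.13 and 0.09, and Rbm15b by 0.45, -0.44 and -0.53.

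**Figure D5:**
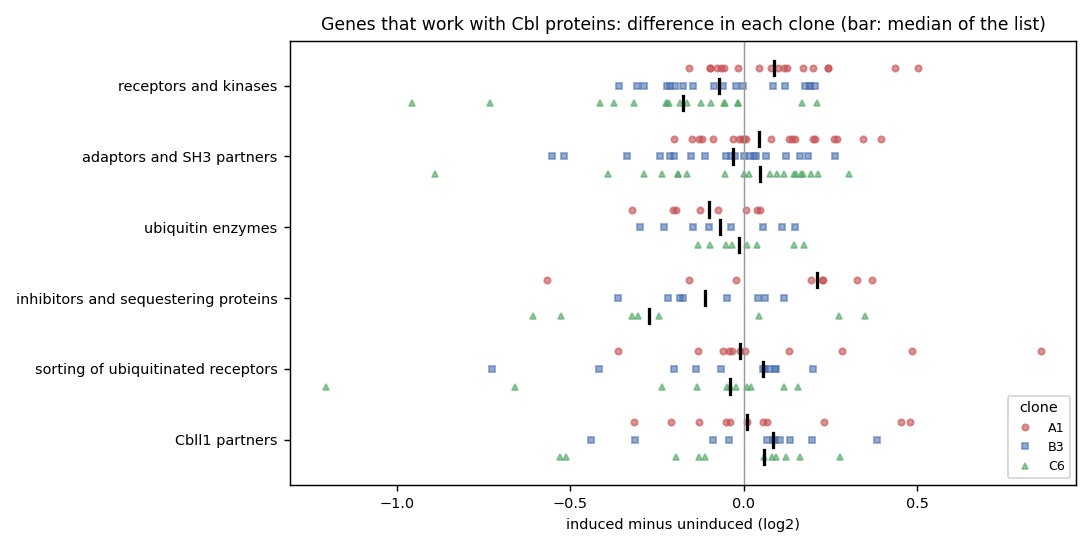
Induced minus uninduced difference (log2) of each measured gene of the 6 partner lists, with 1 symbol per gene and clone and a bar at the median of the list in that clone. The medians of the inhibitors lie at 0.21 (A1), -0.11 (B3) and -0.27 (C6) and those of the receptors and kinases at 0.09, -0.07 and -0.17; no gene passed the comparison of the states.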

How the data were processed

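The authors hybridized total RNA to Affymetrix mouse genome arrays, 1 per clone and state, and summarized the intensities by RMA. No further normalization was applied to the deposited log2 values in the main comparisons; affy and RMA appear in the submitters' processing notes, with no version. Of 45101 probe sets, 64 were Affymetrix controls, and of the 45037 left, 34945 had 1 gene symbol in the platform annotation, 932 several and 9160 none listed here. All 10 member probe sets matched a RefSeq gene number (GRCm38.p6). Induced and uninduced arrays were compared with limma 3.58.1 in R 4.3.3 (lmFit, eBayes, two-sided), and clones with its moderated F test, with p-values adjusted by Benjamini-Hochberg over the 45037 and a threshold of 0.05. limma stood in for the t-test of the methods, which was run as an alternative.

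The members and lists were chosen with earlier results of these data known. Named genes were every member probe set and the 3 genes of each partner list with the smallest p. The 5 genes most like and the 5 most opposite to the leading Cbl probe set were also named. Cdh1, Fgfr1, Yes1 and the markers named singly were added after their values were seen. The listed genes Lyn, Lck, Slap, Uba1, Ube2d2 and Ube2l3, and the marker T, matched no probe set with a single symbol. For a gene with several probe sets the brightest stood for it outside the family. Each clone gave 1 array to either group, which pairs the arrays; deviations from the group means correlated within a clone at 0.19 (A1), 0.53 (B3) and 0.31 (C6). The labels call the arrays biological replicates. The number of arrays limits the precision. No 2 arrays were duplicates (r from 0.991 to 0.996). Alternatives covered the block, the test, the variance model, normalization, filters, the threshold, and leaving out arrays or clones. Sequences of the probes and proteins were not used here.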

Additional observations from a re-analysis of the deposited data

Results flagged for a closer look

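Between clones, 4 family probe sets were singled out because A1 moved one way and both other clones the opposite way; each clone gave 1 difference, and the difference between clones was not tested. In A1 minus the mean of B3 and C6, the induced minus uninduced difference was -4.74 for Cbl 1455886_at, -1.61 for Cbl 1450457_at, -0.31 for Cbl 1434829_at and 0.41 for Cblc 1431692_a_at. For Cblc the clones differed by 0.24 (A1), -0.29 (B3) and -0.05 (C6). Groups of 3 arrays were too small for a search for single outlying arrays.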

How the results depend on the processing

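With all 6 arrays and the clone as a replicate block 0 probe sets were called between the states, and the block changed no call of a member there. The trend and robust variance model, both normalizations, the filter at a mean of 6, 1 probe set per gene, the methods' t-test and a threshold of 0.1 also called 0 between the states. Leaving out arrays or clones gave 0 to 981 calls, the highest (392 higher, 589 lower) without A1 and with the block. Without A1 and without the block Cbl 1455886_at came near the threshold (limma, adjusted p = 0.0536), on the contrast by which Cbl was chosen. Between clones the count of 509 became 108 with a mean of at least 6, and 11 to 3838 when single arrays were left out, with 3838 without uninduced A1, 3364 without induced A1 and 11 to 117 without an array of B3 or C6. Without an A1 array the level of A1 rests on how B3 and C6 moved, so calls of Cbl in those fits are not given.

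No member passed in any setting where its sign turned. When arrays or clones were left out, mean differences ranged from -0.041 to 0.15 for Cbl 1434829_at, -0.26 to 0.69 for Cbl 1450457_at, -0.024 to 0.097 for Cblb 1455082_at, -0.19 to 0.14 for Cblc 1431692_a_at, -0.26 to 0.0036 for Cblc 1422666_at, -0.11 to 0.11 for Cbll1 1421122_at and -0.076 to 0.11 for Cbll1 1437203_at. Cbl 1455886_at stayed above 0, from 0.076 to 2.49. With arrays centred on their medians Cbll1 1437203_at differed by -0.0077, and the values of A1 minus the other clones turned to 0.0088 for 1421122_at and 0.0057 for 1437203_at. Leaving out a whole clone gave the same turns with and without the clone as a replicate block. The mean difference turned to -0.0056 for Cblb 1455082_at without A1. Without B3 it turned to -0.041 for Cbl 1434829_at and 0.092 for Cblc 1431692_a_at. Without C6 it turned to -0.26 for Cbl 1450457_at, 0.0036 for Cblc 1422666_at, 0.073 for Cbll1 1421122_at and -0.047 for Cbll1 1437203_at. The cause of these turns was not tested.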
